A study of Mus musculus with 12 samples.

Results

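The genes of MHC class II antigen presentation were followed in subcutaneous flank tumors of MC38, a mouse colon carcinoma line. The 9 genes were taken by symbol from the 23282 lines of a table of read counts, and all 9 were found, with a single line each. They are H2-Aa, H2-Ab1 and H2-Eb1 (the chains of the class II molecules), Cd74 (the invariant chain), H2-DMa, H2-DMb1 and H2-DMb2 (the peptide exchange factor DM), Ciita (the transactivator) and Ctss (cathepsin S). Hosts in every group were wild-type female C57BL/6 mice, 6 weeks old per the labels, with an intact immune system, and tumors were collected on day 19. Each of the 4 groups held 3 tumors, named here replicates 1 to 3. Con mice received saline with an IgG2a antibody. SFIH mice received a fraction of Inula helenium root rich in sesquiterpene lactones, 50 mg/kg daily, and PD mice an antibody to PD-1, 200 μg per injection, 2 times a week, both into the peritoneum. Comb mice received both agents. The study's description of its groups gives the IgG2a antibody to the SFIH mice as well. The labels do not say that the tumors of a group came from separate mice, so that p-values measure the spread between these samples.

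Class II molecules carry peptides from proteins that a cell has taken up, and show them to CD4+ T cells. The α and β chains assemble on the invariant chain, which cathepsin S and other proteases trim, and DM then exchanges the last remnant of the invariant chain for peptide. The chain genes, Cd74 and the DM genes share a promoter element, the X and Y boxes, on which CIITA acts once factors are bound there. Dendritic cells, macrophages and B cells hold most of these transcripts in tumors, and interferon gamma induces CIITA in many other cells.

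The promoter letters are shown because this shared element ties most of these genes together. The table of RefSeq promoter sequences (build GRCm38.p6) held 6 of the 9 genes, and H2-Ab1, Cd74 and Ciita are named only. The 140 bases before the transcription start are printed 5′ to 3′ on the strand of the gene, with the matches to 3 motifs in capitals. These are the Y box (TGATTGG), an X box-like run (CTNGNAAC) and, in Ctss, an interferon response element (GAAA, any pair of bases, GAAA). H2-Aa lies at chr17:34287824-34287963 on the minus strand, H2-Eb1 at chr17:34305727-34305866, H2-DMb1 at chr17:34153051-34153190, H2-DMb2 at chr17:34145109-34145248 and Ctss at chr3:95526646-95526785, all 4 on the plus strand.
H2-Aa: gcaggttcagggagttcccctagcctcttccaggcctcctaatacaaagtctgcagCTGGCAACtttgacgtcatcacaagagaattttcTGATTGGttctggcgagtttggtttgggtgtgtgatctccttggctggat
H2-Eb1: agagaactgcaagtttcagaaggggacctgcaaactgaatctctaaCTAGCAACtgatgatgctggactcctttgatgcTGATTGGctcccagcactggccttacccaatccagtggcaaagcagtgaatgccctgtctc
H2-DMb1: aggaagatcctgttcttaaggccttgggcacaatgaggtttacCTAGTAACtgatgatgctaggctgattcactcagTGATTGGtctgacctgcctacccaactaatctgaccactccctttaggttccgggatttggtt
H2-DMb2: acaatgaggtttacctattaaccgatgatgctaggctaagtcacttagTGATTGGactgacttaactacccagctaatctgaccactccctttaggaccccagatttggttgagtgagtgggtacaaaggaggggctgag
Ctss: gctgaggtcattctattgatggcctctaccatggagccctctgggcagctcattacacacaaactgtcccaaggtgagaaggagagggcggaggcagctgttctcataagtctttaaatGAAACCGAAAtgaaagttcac

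H2-Aa, H2-Eb1 and H2-DMb1 each held an X box-like run followed by a Y box, with gaps of 26, 25 and 26 bases between them. The same pair within 40 bases was found in 31 of 32851 mouse promoter windows of 300 bases (250 before and 50 after the start), a share of 0.0944%, with both strands searched. The letters of the X box-like run were chosen after these windows had been read, so that the matches in the class II genes are a description only. H2-DMb2 held the Y box without the X box-like run. Singly, the Y box was found in 7.817% of all windows, the X box-like run in 13.15% and the interferon response element in 3.443%. The 2 windows of H2-DMa held none of these letters.

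A library was sequenced for each tumor from the 3′ ends of transcripts, and total counts were between 7870741 and 12261032 per tumor. Levels are CPM, counts scaled to a common library total, after TMM scaling, and log2 levels are log2(CPM + 1). The library of Comb replicate 3 stood apart. Its proliferation markers summed to 166 CPM, against 2053 to 2916 CPM in the other 11 tumors. Its macrophage markers (13 genes) summed to 18421 CPM against 721 to 5004 CPM, its skeletal muscle markers to 8655 CPM against at most 771 CPM, and its skin markers to 462 CPM against at most 28.4 CPM. Comb replicates 1 and 2 also differed from the rest. The 771 CPM was in Comb replicate 1, and the muscle markers of the remaining tumors summed to 11.3 to 163 CPM. Comb replicate 2 had 440 CPM of adipocyte and 11700.5 CPM of fibroblast markers. Those were at most 133 and 6763 CPM in tumors other than Comb replicates 2 and 3. The labels give the samples as tumor cells, but RNA came from whole tumor tissue, and the summed epithelial markers (9 genes) were only 4.69 to 25.2 CPM in 11 tumors and 116 CPM in Comb replicate 3. In such bulk RNA, fewer cells of a type and less RNA per cell cannot be told apart.

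The 8 genes other than H2-DMb2 had higher mean levels in PD and in Comb than in Con, and for SFIH alone no difference was larger than the spread between tumors. The 9 genes together took 0.0637% to 0.158% of the counts of a Con tumor, 0.0826% to 0.145% of an SFIH tumor and 0.219% to 0.373% of a PD tumor. In Comb the shares were 0.161% in replicate 1, 0.659% in replicate 2 and 3.18% in replicate 3. Counting error was small beside these differences, with a 95% Wilson interval of 3.17% to 3.19% for the last. The edgeR quasi-likelihood test called none of them at an adjusted p under 0.05 in any of 7 comparisons, as it did for 0% of the 13464 genes tested.

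**Figure D1:**
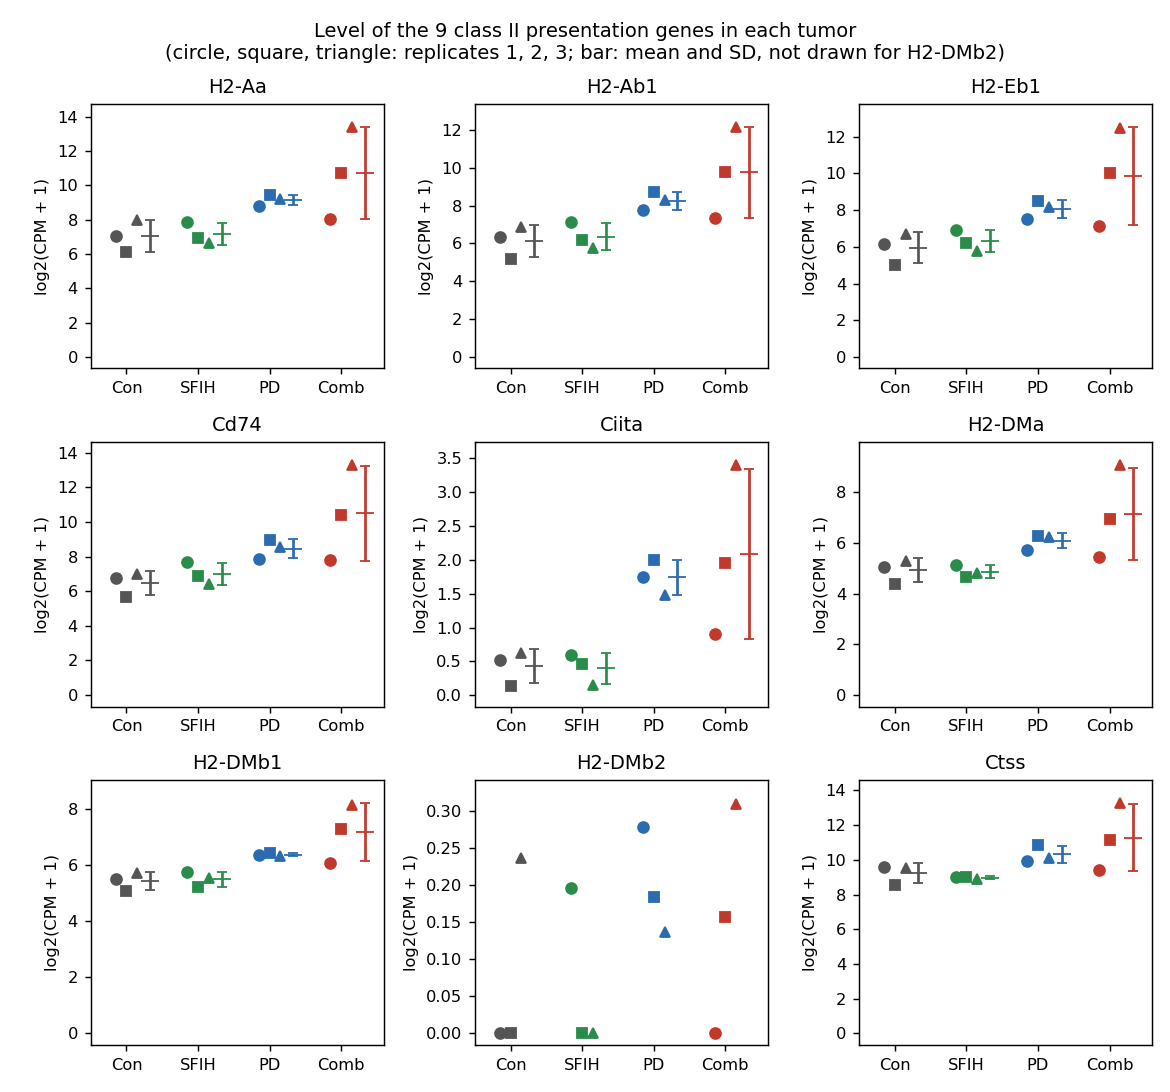
Log2(CPM + 1) of the 9 genes (1 panel each, with its own vertical scale) in the 12 tumors, by group on the horizontal axis. Circles, squares and triangles are replicates 1, 2 and 3, and bars give the mean and SD of 3 tumors, except for H2-DMb2. Comb replicate 1 lies between the Con and PD tumors for H2-Aa and Comb replicate 3 lies above all tumors.

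H2-Aa encodes the α chain of the class II molecule I-A. Its level was 132, 68.9 and 246 CPM in Con replicates 1 to 3, and 229, 122 and 98.8 CPM in the SFIH tumors. In the PD tumors it was 449, 680 and 596 CPM, and in the Comb tumors 261, 1706 and 10843 CPM. Every PD tumor was above every Con tumor, and so was every Comb tumor, although Comb replicate 1 exceeded the highest Con tumor only slightly and was below all PD tumors. The edgeR log2 fold change from Con was 0.01 ± 0.93 (SE) in SFIH, 1.95 ± 0.97 in PD and 4.85 ± 1.1 in Comb, with adjusted p of 0.99979, 0.999791 and 0.0665. The last was 2.72 ± 0.66 without Comb replicate 3, with an adjusted p of 0.0968.

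H2-Ab1 encodes the β chain that pairs with the H2-Aa product. It was at 79.6, 35.0 and 116 CPM in the Con tumors, with 138, 70.4 and 52.4 CPM in SFIH. The PD tumors had 214, 412 and 318 CPM and the Comb tumors 161, 876 and 4568 CPM. PD and Comb tumors again lay above all Con tumors, and SFIH tumors lay among them apart from replicate 1. The edgeR log2 fold change from Con was 2.03 ± 0.91 (SE) in PD and 4.61 ± 1.02 in Comb, with adjusted p of 0.999791 and 0.0665. H2-Eb1, the β chain of the class II molecule I-E, was at 71.5, 31.1 and 101 CPM in Con. SFIH tumors had 121, 73.9 and 53.6 CPM, PD tumors 184, 361 and 291 CPM, and Comb tumors 141, 1024 and 5749 CPM. Its log2 fold change was 2.04 ± 0.95 in PD and 5.09 ± 1.09 in Comb (edgeR, adjusted p 0.999791 and 0.0665). The values in Comb were 2.75 ± 0.65 for H2-Ab1 and 3.10 ± 0.68 for H2-Eb1 without Comb replicate 3. The line for the I-E α chain, H2-Ea-ps, which is a pseudogene in C57BL/6 mice, had 0 counts in all 12 tumors.

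Cd74 encodes the invariant chain, which fills the peptide groove until the class II molecule reaches the endosome. Its level was 108, 49.3 and 127 CPM in Con tumors, and 203, 114 and 85.8 CPM after SFIH. In PD it was 235, 491 and 376 CPM, and in the Comb tumors 218, 1356 and 9983 CPM. The order of the tumors was close to that of the chain genes, with Comb replicate 1 below every PD tumor. From Con, the log2 fold change of Cd74 was 0.50 ± 0.95 (SE) in SFIH, 1.96 ± 0.98 in PD and 5.35 ± 1.14 in Comb (edgeR, adjusted p 0.99979, 0.999791 and 0.0665). The log2 fold change in Comb was 3.05 ± 0.64 without Comb replicate 3, with an adjusted p of 0.0882 in edgeR.

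The DM genes differed less. H2-DMa, the α chain of DM, was at 32.4, 19.96 and 38.4 CPM in Con, with 34.2, 24.3 and 27.4 CPM under SFIH, 52.4, 76.8 and 74.0 CPM under the antibody alone, and 43.1, 121 and 539 CPM under both. H2-DMb1, a β chain of DM, was at 44.5, 32.2 and 51.4 CPM in Con. SFIH tumors had 52.8, 36.1 and 44.7 CPM, PD tumors 79.5, 84.9 and 79.1 CPM, and Comb tumors 65.9, 154 and 278 CPM. For both genes all PD and all Comb tumors were above all Con tumors, and the PD tumors of H2-DMb1 had an SD of only 0.06 on the log2 scale. The log2 fold changes from Con were 1.16 ± 0.68 (SE) in PD and 2.96 ± 0.72 in Comb for H2-DMa, and 0.93 ± 0.40 and 1.96 ± 0.41 for H2-DMb1. Their edgeR adjusted p was 0.999791 in PD and 0.0665 in Comb. The log2 fold change in Comb was 1.44 ± 0.38 for H2-DMa and 1.36 ± 0.30 for H2-DMb1 without Comb replicate 3.

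H2-DMb2, the other DM β chain gene, had 0, 0 and 2 counts in Con tumors, and 2, 0 and 0 after SFIH. In PD there were 2, 1 and 1, and in the Comb tumors 0, 1 and 2. All are at or under 3 counts, the floor used here, which stood for 0.218 to 0.408 CPM in a tumor, so that no fold is given and the gene was not tested. H2-DMb1 had at least 321 counts in every tumor. Reads of the paired genes could be mixed where their transcripts match. Over the last 300 bases, from which 3′ reads come, their GENCODE vM21 transcripts were 64.6% identical, and 0 of the 226 windows of 75 bases (the read length) in H2-DMb1 were found in H2-DMb2. Over the whole transcript 254 of 1330 windows were shared.

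Ciita, the transactivator of class II genes, was scarce. It had 5, 1 and 6 counts in Con, with 7, 5 and 1 under SFIH, 22, 22 and 18 under the antibody alone, and 9, 25 and 80 under both. The gene passed the filter on low counts only through the groups where it was high, so its inclusion depended on the difference. Each PD tumor had at least 3 times the CPM of any Con or SFIH tumor, with 1.80 to 2.99 CPM against 0.10 to 0.535 CPM. For this reason no p-value of its own is given for Ciita. Its fitted log2 fold change from Con was 2.67 ± 0.89 (SE) in PD and 3.57 ± 0.90 in Comb (2.32 ± 0.77 without Comb replicate 3), as a description. Between PD and Comb its value was 0.90 ± 0.79, and it turned to -0.35 ± 0.72 without Comb replicate 3.

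Ctss encodes cathepsin S, the protease that makes the last cut in the invariant chain. It was at 775, 378 and 729 CPM in Con. SFIH tumors had 515, 516 and 478 CPM, PD tumors 958, 1883 and 1121 CPM, and Comb tumors 686, 2218 and 9814 CPM. All PD tumors were above all Con tumors, but Comb replicate 1 lay among the Con tumors, which it did for none of the other tested genes at TMM-scaled levels. The log2 fold change of Ctss from Con was -0.32 ± 0.71 (SE) in SFIH, 1.08 ± 0.71 in PD and 2.76 ± 0.75 in Comb (edgeR, adjusted p 0.99979, 0.999791 and 0.0714), and the last was 1.21 ± 0.43 without Comb replicate 3.

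In the comparisons between groups, levels, overlaps and medians over the 8 tested genes include Ciita and are descriptions, and p-values and calls are those of the other 7. Over these 7 the median log2 fold change was 1.95 from Con to PD, 4.61 from Con to Comb, 2.57 from PD to Comb and 4.43 from SFIH to Comb. The last 3 were 2.72, 0.72 and 2.55 without Comb replicate 3.

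For SFIH against Con, log2 fold changes of the 8 tested genes ran from -0.32 (Ctss) to 0.50 (Cd74), with a median of 0.04 beside 0.02 over all genes. None had an unadjusted p under 0.05 in edgeR, against 2.25% of all genes, and DESeq2 called none of them, against 0.0105% of all genes. The same held for both tools without Comb replicate 3, against 7.49% of all genes with an unadjusted p under 0.05 in edgeR and 0.513% called by DESeq2. No gene had all SFIH tumors above all Con tumors, against 8.55% of genes. Standard errors of 0.40 to 0.95 mean that differences of that size were not detectable with these tumors.

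For PD against Con, the 8 genes had log2 fold changes of 0.93 to 2.67, with a median of 1.95 beside 0.01 over all genes. Each had all 3 PD tumors above all 3 Con tumors, as did 9.37% of all genes (5.76% without TMM scaling, where it also held for all 8). In edgeR none passed the adjusted threshold. Of the 7 genes other than Ciita, H2-DMb1 and H2-Ab1 had unadjusted p of 0.0425 and 0.0472, against 3.99% of all genes under 0.05. Without Comb replicate 3, which is not in this comparison but enters the shared estimate of the spread, all 7 were under 0.05, against 10.7% of all genes, and edgeR called none. DESeq2 also called none, against 0.0105% of all genes, and none without Comb replicate 3, against 0.513%. Each of the 7 reached 0.1 in the two-sided exact permutation test, the smallest p that 3 tumors against 3 allow.

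For Comb against Con, log2 fold changes were 1.96 to 5.35, with a median of 4.09 beside -0.03 over all genes. All 7 had an unadjusted p under 0.05 in edgeR, as had 25.3% of all genes, and adjusted p were 0.0665 to 0.0714. DESeq2 called all 7, against 13.8% of all genes. In 7 of the 8 the groups did not overlap, against 11.7% of genes. Without TMM scaling this held for 6, since H2-Aa then overlapped, against 7.6%. Without Comb replicate 3 the log2 fold changes were 1.21 to 3.10 and the adjusted p 0.0882 (Cd74) to 0.178 (Ctss) in edgeR, which called 0.0367% of all genes in that fit and none of these. All 7 had an unadjusted p under 0.05 there too (18.8% of all genes), and DESeq2 on the same tumors called 6, against 5.07% of all genes. When Comb replicate 1 was left out instead, edgeR called all 7, against 28.5% of all genes.

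**Figure D2:**
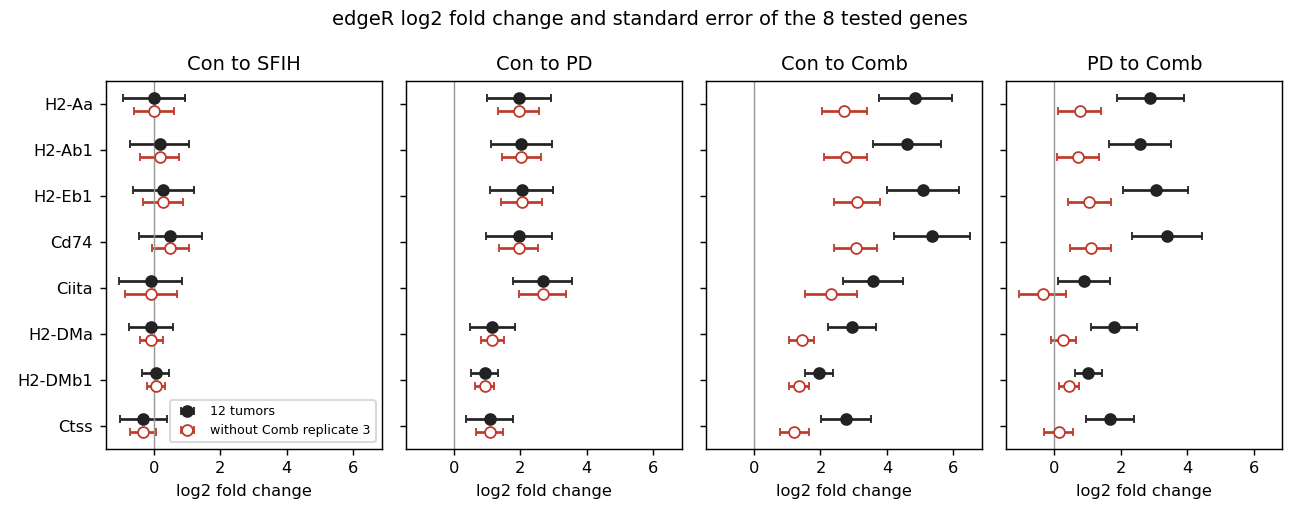
EdgeR log2 fold changes (horizontal axis) with their standard errors for the 8 tested genes in 4 comparisons, from the fit of 12 tumors (filled) and without Comb replicate 3 (open). In Con to PD the paired points coincide, and in Con to Comb they move from 1.96 to 5.35 down to 1.21 to 3.10.

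For Comb against PD, log2 fold changes were 0.90 to 3.39, with a median of 2.18 beside 0.00 over all genes, and adjusted p were 0.243 to 0.261 in edgeR. The unadjusted p was under 0.05 for all 7, and for 18% of all genes. DESeq2 called H2-Aa, H2-Eb1 and Cd74 with adjusted p of 0.0393, 0.0283 and 0.0152, against 2.81% of all genes, and none without Comb replicate 3, against 0.314%. No gene had all Comb tumors above all PD tumors, against 6.21% of genes (4.25% without TMM scaling). Comb replicate 1 was below every PD tumor for all 8, replicate 3 was above every PD tumor for all 8, and replicate 2 for all but Ciita. Without Comb replicate 3 the log2 fold changes were -0.35 to 1.1, with adjusted p of 0.602 to 0.936 and no unadjusted p under 0.05 in edgeR, against 9.02% of all genes. Without Comb replicate 1 edgeR called all 7, against 15.2% of all genes.

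For Comb against SFIH, the 8 log2 fold changes were 1.90 to 4.85, with a median of 4.05 beside -0.05 over all genes and an adjusted p of 0.128 for each of the 7 in edgeR. All 7 had an unadjusted p under 0.05 (19% of all genes), DESeq2 called all 7 (7.78% of all genes), and in all 8 every Comb tumor was above every SFIH tumor (7.64% of genes). Without TMM scaling Cd74 overlapped, and this held for 7, against 4.65%. The median was 2.48 without Comb replicate 3, where edgeR called none, with all 7 at an unadjusted p under 0.05 (10.8% of all genes), and DESeq2 called 3 (0.687%). EdgeR called all 7 when Comb replicate 1 was left out, as it did 22.5% of all genes.

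Both antibody groups together (6 tumors) were set against both groups without it (6 tumors). The log2 fold changes were 1.41 to 3.42, with a median of 3.20 beside -0.03 over all genes and adjusted p of 0.0973 to 0.098 in edgeR. Unadjusted p were under 0.05 for all 7, against 18.7% of all genes, and DESeq2 called all 7, against 8.62%. In the TMM-scaled levels, 7 of the 8 genes had all 6 antibody-treated tumors above all 6 others, which was so for 1.12% of all genes. Each of these other than Ciita gave an exact permutation p of 0.00216, the smallest that 6 against 6 can give, and Ctss, with 5 of 6 above, gave 0.00649 (two-sided). Without TMM scaling H2-Aa and Cd74 overlapped as well, and this held for 5 genes, against 0.661%. Without Comb replicate 3 the log2 fold changes were 1.11 to 2.54, with edgeR adjusted p of 0.065 to 0.0711, where 0.0147% of all genes were called. In that fit all 7 had an unadjusted p under 0.05 (19.5% of all genes), DESeq2 called all 7 on the same tumors (6.66%), and leaving out Comb replicate 1 instead, edgeR called all 7 (17.1%). These tumors are those of the comparisons above, so that the values are not further evidence.

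The interaction, the effect of the antibody with SFIH less its effect without it, had log2 values of 0.97 to 2.89 and an adjusted p of 0.894 for each of the 7 in edgeR. None of the 7 had an unadjusted p under 0.05, against 2.55% of all genes, and DESeq2 called none, against 0.00526%. The median interaction was 2.20, and 0.50 without Comb replicate 3, and that of Ciita was -0.26.

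The Comb tumors differed from each other more than the tumors of any other group did in these 8 genes. Comb replicate 3 was 45.7-fold above replicate 1 for Cd74, 41.6-fold for H2-Aa, 40.6-fold for H2-Eb1 and 28.3-fold for H2-Ab1. The fold was 14.3 for Ctss, 12.5 for H2-DMa, 10.97 for Ciita and 4.22 for H2-DMb1. Replicate 2 was above replicate 1 in all 8, by 2.33-fold (H2-DMb1) to 7.24-fold (H2-Eb1). Among the Con tumors the highest over the lowest was 5.34-fold for Ciita, which had 1 to 6 counts there, 3.57-fold for H2-Aa and 1.60-fold for H2-DMb1. The 8 genes varied together across tumors, with Pearson correlations of log2 levels of 0.951 to 0.997 over their 28 pairs in 12 tumors and 0.896 to 0.996 without Comb replicate 3. These points share libraries and groups, and are a description.

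Ratios of counts within a tumor do not depend on library size. H2-Aa to H2-Ab1 was 1.62 to 2.37 in all 12 tumors, with neither agent separating them. H2-Eb1 to H2-Ab1 was 0.859 to 0.916 in the 6 tumors without SFIH and 0.875 to 1.26 in the 6 with it, of which 4 were above all others. Cd74 to the sum of H2-Aa and H2-Ab1 was 0.510, 0.475 and 0.351 in Con, and 0.551, 0.594 and 0.567 in SFIH. It was 0.354, 0.449 and 0.411 in PD, and 0.517, 0.525 and 0.648 in Comb. All 6 tumors given SFIH, with or without the antibody, thus had more Cd74 for each α and β chain count than all 6 tumors without it, by 1.34-fold between the geometric means. The nearest tumors, Con replicate 1 and Comb replicate 1, were 0.510 and 0.517, so that the separation was narrow there. No p-value is given for these ratios, because they are scores over the chosen genes.

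**Figure D3:**
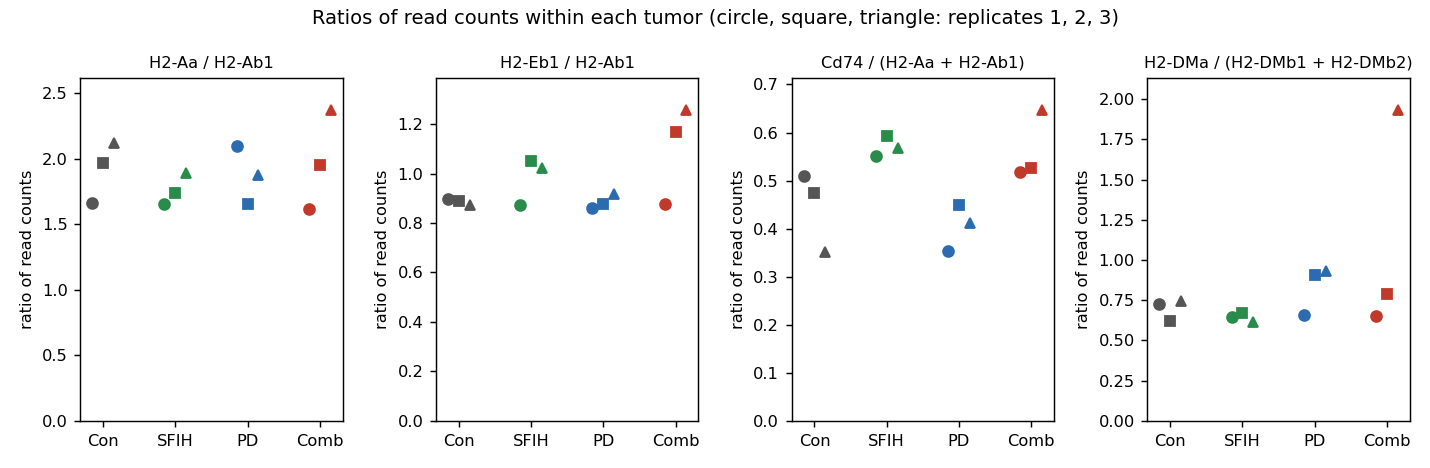
Ratios of read counts within each of the 12 tumors, by group on the horizontal axis, with axes that start at 0. Circles, squares and triangles are replicates 1, 2 and 3. The ratio of Cd74 to H2-Aa plus H2-Ab1 is at or below 0.510 in Con and PD and at or above 0.517 in SFIH and Comb.

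H2-DMa to the sum of H2-DMb1 and H2-DMb2 was 0.613 to 0.746 without the antibody and 0.654 to 0.934 in 5 tumors with it, and reached 1.94 in Comb replicate 3. The DM genes together against H2-Aa plus H2-Ab1 were at 0.237 to 0.502 without the antibody and 0.0531 to 0.258 with it, so that 5 of the 6 tumors given the antibody had less DM for each chain count than any tumor without it. Ctss against the same chains was 1.40 to 3.66 without the antibody and 0.637 to 1.72 with it.

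The class II genes were set beside markers of the cells that hold them. Macrophage markers summed to 721 to 1226 CPM in Con tumors, and 1252 to 1407 after SFIH. In PD they summed to 1305 to 2580, and in the Comb tumors 1466, 5004 and 18421 for replicates 1 to 3. The sum of H2-Aa, H2-Ab1, H2-Eb1 and Cd74 divided by that of the macrophage markers was 0.229 to 0.491 in the 6 tumors without the antibody and 0.533 to 1.69 in the 6 with it. The separation was as complete without Comb replicate 3, the highest of them. Of the 12 dendritic cell markers, Fscn1, an actin-bundling protein that other cells also make, took most of the counts in Con, SFIH and PD, with a mean of 446 CPM in Con and 256 CPM in Comb. The other 11 summed to 40.6 to 57.8 CPM in the 6 tumors without the antibody, 51.1 to 122 CPM in PD, and 70.0, 254 and 1060 CPM in Comb. Clec10a, a lectin of dendritic cells and macrophages, had 62, 107 and 79 counts in Con, 132, 348 and 395 in PD, and 306, 1398 and 6373 in Comb. In Comb replicates 2 and 3 it gave most of the counts of the 11, so that their sum there is mainly this gene. Of all 12 markers, 9 were higher in Comb than in Con, with a median log2 fold change of 2.66, and 1.66 without Comb replicate 3. Fscn1, Zbtb46 and Ccr7 were lower, with log2 fold changes of -0.80, -0.33 and -0.06 in edgeR. EdgeR called none of the 12, and DESeq2 called 9 from Con to Comb (13.8% of all genes), and 3 without Comb replicate 3 (5.07%). Divided by the 11 markers, the sum of the same class II genes was 4.54 to 11.96 without the antibody, 11.2 in Comb replicate 1 and 15.95 to 29.4 in the other 5 tumors given it. B and plasma cell markers (9 genes) summed to 5.23 to 23.8 CPM in 10 tumors, 100 CPM in Comb replicate 2 and 82.1 CPM in Comb replicate 3, with 1 gene at 0 in all tumors. Ctss to macrophage markers was 0.524 to 0.734 without SFIH and 0.366 to 0.533 with it, with Comb replicate 3 the tumor that overlapped. Fibroblast markers (7 genes) also summed higher in PD than in Con, at 4066 to 6763 CPM against 2122 to 2596 CPM. In SFIH they summed to 993 to 3513 CPM, and in Comb to 2901, 11700.5 and 22746.5 CPM. The part of any of these cells in the class II differences was not tested.

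**Figure D4:**
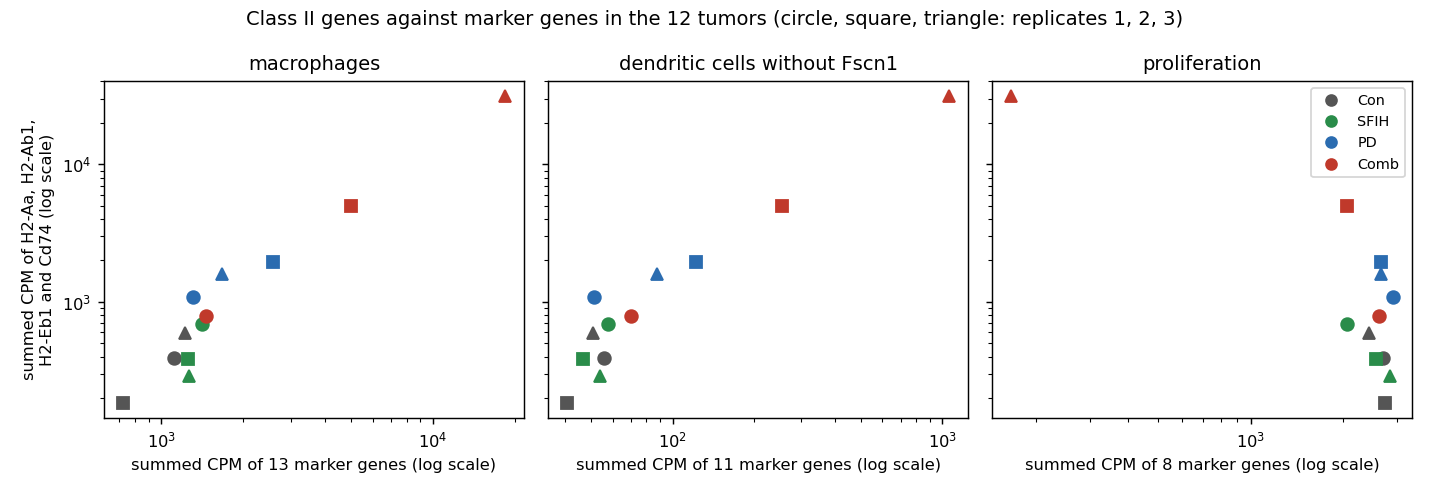
Summed CPM of H2-Aa, H2-Ab1, H2-Eb1 and Cd74 (vertical, log scale) against the summed CPM of macrophage, dendritic cell (without Fscn1) and proliferation markers (horizontal, log scale) in the 12 tumors. Colors are groups, and circles, squares and triangles are replicates 1, 2 and 3. Comb replicate 3 lies apart, at 18421 CPM of macrophage and 166 CPM of proliferation markers.

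CD4+ T cells read class II molecules, and 7 of the 8 markers listed for them were found. In every tumor but Comb replicate 3, most of their counts were from Il2rg, a cytokine receptor chain of lymphocytes and other blood cells, with a mean of 77.8 CPM in Con, 99.9 CPM in SFIH, 105 CPM in PD and 177 CPM in Comb. The other 6, with Cd4, Cd40lg and CD3 chains among them, summed to 13.9 to 21.1 CPM in Con and 14.8 to 24.7 CPM in SFIH. They summed to 21.9 to 60.2 CPM in PD, and to 21.6, 76.2 and 251 CPM in Comb. Cd4 itself had 4, 8 and 23 counts in Con tumors, with 20, 12 and 8 after SFIH. The PD tumors had 7, 29 and 24, and the Comb tumors 24, 71 and 210. The CD3 chains and Lck are not limited to CD4+ T cells. From Con, the log2 fold change of Cd4 was 1.12 ± 0.90 (SE) in PD and 3.46 ± 0.93 in Comb. For Cd8a, a gene of CD8+ T cells, the values were 1.23 ± 0.57 and 1.34 ± 0.57. None of the 6 markers tested was called in edgeR, and DESeq2 called 4 from Con to Comb (13.8% of all genes), and 2 without Comb replicate 3 (5.07%). Their median log2 fold change from Con was 1.13 in PD and 2.39 in Comb, and the latter was 1.28 without Comb replicate 3.

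Among regulators of class II genes, 13 genes were tested and edgeR called 0 in any comparison. DESeq2 called 3 from Con to Comb (13.8% of all genes), 1 from PD to Comb (2.81%), 5 from SFIH to Comb (7.78%) and 5 for any antibody against none (8.62%). On the 11 tumors without Comb replicate 3 these DESeq2 counts were 1, 0, 1 and 3, against 5.07%, 0.314%, 0.687% and 6.66% of all genes. The symbol March1 stands on more than 1 line and was left out. Rfx5 and the NF-Y subunits, which bind the X and Y boxes, are in this list. Their log2 fold changes from Con ran from -0.33 to 0.22 in PD and from -0.30 to 0.21 in Comb, with SE of 0.27 to 0.42. Irf1, a factor induced by interferon gamma that acts on the Ciita promoter, had a log2 fold change of 0.58 ± 0.19 (SE) in PD and 0.27 ± 0.19 in Comb, with unadjusted p of 0.0117 and 0.183 in edgeR. Irf4, a factor of B cells and some myeloid cells, had 13, 2 and 10 counts in Con and 18, 33 and 258 in Comb, with a log2 fold change of 3.996 ± 1.12. Cd83, a surface protein of mature dendritic cells that keeps class II molecules at the surface, had 46, 28 and 51 counts in Con and 48, 173 and 601 in Comb, with a log2 fold change of 3.08 ± 0.78. These were 1.86 ± 0.83 for Irf4 and 1.68 ± 0.54 for Cd83 without Comb replicate 3. In both genes Comb replicate 1 had the fewest counts of its group and replicate 3 the most.

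Other genes of the class II region varied in direction. H2-Oa, a chain of the DM inhibitor DO, had 68, 28 and 32 counts in Con. SFIH tumors had 92, 44 and 32, PD tumors 13, 10 and 6, and Comb tumors 50, 5 and 33. From Con to PD its log2 fold change was -1.80 ± 0.71 (SE), with an unadjusted p of 0.0283 in edgeR (adjusted 0.999791). An unadjusted p under 0.05 was found for 3.99% of all genes there. The DO β chain gene H2-Ob had 0, 2 and 2 counts in Con, 6, 0 and 5 in PD, and 5, 12 and 79 in Comb. H2-Eb2, a further class II β chain gene, had 0, 1 and 4 counts in Con and 8, 2 and 16 in Comb. Psmb9 and Tap1, which serve class I presentation and lie in the same region, had log2 fold changes of 0.12 ± 0.34 and 0.25 ± 0.19 in PD, and 0.64 ± 0.34 and 0.03 ± 0.19 in Comb. Of the 3 genes tested in this list edgeR called none. DESeq2 tested 6 from Con to Comb, of which 5 were higher in Comb, and called 1, H2-Ob, against 13.8% of all genes. H2-Ob had at most 6 counts outside Comb and did not pass the edgeR filter. Its inclusion depended on the group where it was high, so the call is a description and no p-value is given. DESeq2 called 0 of 4 without Comb replicate 3, against 5.07% of all genes.

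Of the lysosomal processing list, all 10 genes were tested, edgeR called 0, and all 10 were higher in Comb than in Con with an unadjusted p under 0.05, against 25.3% of all genes. DESeq2 called 8 from Con to Comb (13.8% of all genes), 4 from SFIH to Comb (7.78%) and 2 for any antibody against none (8.62%), and 1, 0 and 1 without Comb replicate 3 (5.07%, 0.687% and 6.66%). The median log2 fold change was 1.74 in Comb and 0.21 in PD, and 0.69 in Comb without Comb replicate 3, where 5 of 10 had an unadjusted p under 0.05, against 18.8% of all genes. Ctsc, a dipeptidyl peptidase that activates granzymes, had a log2 fold change of 0.98 ± 0.48 (SE) in PD and 2.25 ± 0.50 in Comb. Its counts were 1437, 919 and 2161 in Con and 2236, 5364 and 9347 in Comb, with replicate 3 the highest. For Ctsh and Ctsb, further lysosomal cysteine proteases, the values in Comb were 2.76 ± 0.72 and 2.20 ± 0.68 (edgeR, adjusted p 0.0686 and 0.086), and 1.45 ± 0.47 and 0.79 ± 0.39 without Comb replicate 3.

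Of the costimulation list 6 genes were tested and edgeR called 0. DESeq2 called 3 from Con to Comb (13.8% of all genes), 1 from SFIH to Comb (7.78%) and 1 for any antibody against none (8.62%), and 0, 0 and 1 without Comb replicate 3 (5.07%, 0.687% and 6.66%). Cd86, the ligand of CD28 on antigen-presenting cells, had 54, 19 and 76 counts in Con, 56, 100 and 103 in PD, and 54, 173 and 441 in Comb. The log2 fold change of Cd86 was 1.15 ± 0.70 (SE) in PD and 2.53 ± 0.72 in Comb (edgeR, adjusted p 0.999791 and 0.0747), and in Comb 1.48 ± 0.58 without Comb replicate 3. Cd40, through which CD4+ T cells activate antigen-presenting cells, had 0.30 ± 0.44 in PD and 1.5 ± 0.44 in Comb, which was 0.72 ± 0.28 without Comb replicate 3.

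Of the interferon gamma list 8 genes were tested and edgeR called 0. DESeq2 called 4 from Con to Comb (13.8% of all genes), 3 from SFIH to Comb (7.78%) and 3 for any antibody against none (8.62%), and 3, 1 and 3 without Comb replicate 3 (5.07%, 0.687% and 6.66%). Ifng, the cytokine itself, had 8, 2 and 14 counts in Con tumors, and 29, 7 and 11 after SFIH. In PD there were 17, 44 and 19, and in the Comb tumors 14, 92 and 92. Every PD tumor was above every Con tumor in counts, while Comb replicate 1 was equal to the highest Con tumor. The log2 fold change of Ifng was 2.13 ± 0.91 (SE) in PD and 3.38 ± 0.93 in Comb, with unadjusted p of 0.038 and 0.00375 in edgeR. Ifngr1, a chain of its receptor, had 0.41 ± 0.45 in PD and 1.80 ± 0.46 in Comb (1.03 ± 0.30 without Comb replicate 3), and the receptor kinase Jak1 0.04 ± 0.21 and -0.07 ± 0.21.

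The genes whose pattern was most like the class II genes were ranked by Pearson correlation with the mean z-score of the 9 genes over 12 tumors, among 10595 tested genes with a mean of at least 50 counts. The leading 6 were Plbd1 (0.982), Cd86 (0.979), Slc29a3 (0.976), 5430427O19Rik (0.975), Serpina3f (0.975) and Lpcat2 (0.974). Without Comb replicate 3 the leading 6 were Ubd (0.969), Cxcl9 (0.968), Plbd1 (0.967), Serpina3f (0.965), Tbxas1 (0.961) and Slc29a3 (0.960), and 3 genes were in both. Correlations over 0.9 were reached by 426 genes in 12 tumors and by 96 in 11, with the tumors sharing groups and libraries. Plbd1 had 193, 131 and 278 counts in Con, with 349, 269 and 147 under SFIH, 258, 391 and 349 under the antibody alone, and 288, 616 and 2368 under both. Cxcl9, a chemokine induced by interferon gamma, had 1731, 614 and 1400 counts in Con, 2480, 2750 and 3426 in PD, and 1997, 6064 and 4810 in Comb, so that Comb replicate 3 was not its highest tumor.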

How the data were processed

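RNA from 12 MC38 tumors was read with QuantSeq 3′ mRNA-Seq libraries (single-end, 75 bp), which copy transcript 3′ ends. The authors deposited raw read counts per gene symbol, without normalization. The aligner, counting tool, strand setting, genome build and annotation are not given in the sources used here. Groups and replicate numbers came from the sample labels, and no batch is given there. All 12 tumors entered 1 edgeR 4.0.16 fit (R 4.3.3) with a coefficient per group, after filterByExpr (13464 genes) and TMM scaling. Quasi-likelihood tests were two-sided, with Benjamini-Hochberg adjustment over all genes and a threshold of 0.05. Levels were log2(CPM + 1), a pseudocount of 1, and were compared by exact permutation tests over tumors. The design uses QL tests on counts, while the study's own gene levels were TPM. Counts are not molecules, since no molecular identifiers were used, and intervals cover counting error only. The filter kept 8 of the 9 genes. Repeated symbols (46 lines) were kept apart. No line lacked a gene name, and no pair of replicates within a group agreed within counting noise.

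The 9 genes and all lists were chosen with earlier results of these data known. All 9 are named. From each pathway list the text names genes with an edgeR adjusted p under 0.05 (none here) and otherwise at most 3, the 2 with the smallest p against Con and the most abundant. H2-Ob, H2-Ea-ps, Rfx5, the NF-Y subunits, Zbtb46, Ccr7 and Cd8a were named after their values were seen. The adipocyte and fibroblast marker sums were added then as well. The 6 genes most correlated with the mean z-score of the 9 are named as well, and those for 11 tumors were added after the values were seen, as were the ratios of class II genes to cell markers and of DM and Ctss to the chains, the marker sums without Fscn1 and Il2rg, and H2-Eb2, Fscn1, Clec10a, Il2rg and Cd4.

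Alternatives were DESeq2 1.42.0, no TMM, upper-quartile scaling, no filter, the compared groups alone, a replicate block, leaving out each tumor and, added after seeing the data, DESeq2 without Comb replicate 3. Python 3.11.15, pandas 2.3.3 and matplotlib 3.10.9 served for the tables and plots. Counts were also simulated for Con against Comb over 13464 genes, all with a dispersion of 0.158. EdgeR recovered 71% of 200 genes changed 4-fold there, with 9 false calls. No simulated tumor stood apart, whereas the log2 SD of Cd74 was 2.75 in the real Comb tumors. The 71% is therefore not the power of this design.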

Additional observations from a re-analysis of the deposited data

How the results depend on the processing

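The count of class II genes called by edgeR, with Ciita among the 8 here, was 0 in all 7 comparisons, also without TMM, with upper-quartile scaling, without the filter and with the replicate block, and in the 5 comparisons that could be fitted on the compared groups alone. DESeq2 called 8 for Con to Comb, 3 for PD to Comb, 8 for SFIH to Comb and 8 for any anti-PD-1 against none, against 13.8%, 2.81%, 7.78% and 8.62% of all genes. DESeq2 without Comb replicate 3, added after seeing the data, called 6, 0, 3 and 8, against 5.07%, 0.314%, 0.687% and 6.66% of all genes. Leaving out each tumor in turn, edgeR called 0 to 8 for Con to Comb, 0 to 7 for PD to Comb, and 0 to 8 for SFIH to Comb and for any anti-PD-1, and each of these highest counts came without Comb replicate 1, where 28.5%, 15.2%, 22.5% and 17.1% of all genes were called. Ciita, whose passing of the filter depended on the difference, is 1 of the genes wherever 8 are given, and 7 were called without it. The cause was not tested.

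Directions turned for SFIH against Con and, for Ciita, from PD to Comb (0.90 ± 0.79) and in the interaction. For SFIH against Con, the log2 fold change of H2-Aa was 0.01, and -0.0060 with the compared groups alone. With each tumor left out in turn it ran from -0.44 to 0.57 for H2-Aa, -0.33 to 0.60 for H2-Ab1, -0.10 to 0.68 for H2-Eb1, -0.53 to 0.28 for Ciita, -0.32 to 0.12 for H2-DMa and -0.12 to 0.21 for H2-DMb1. For Ciita, PD to Comb ran from -0.35 to 1.40 and the interaction from -0.26 to 1.5, with -0.33 and -0.23 by DESeq2 without Comb replicate 3.

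The replicate block turned Ciita (0.053) and H2-DMa (0.0073) from Con to SFIH and changed no call. The numbers did not pair the tumors: of 18 same-numbered pairs 6 had a correlation over 0.1 (range -0.288 to 0.409), and 2 of 12 tumors correlated best with their own number. Without TMM the median of all genes moved to -0.29 for Con to Comb, -0.16 for PD to Comb, -0.31 for SFIH to Comb, -0.21 for any anti-PD-1 and -0.20 for the interaction, and the class II medians there were 3.66, 1.86, 3.6, 2.91 and 1.87. Ciita and H2-DMb2 are limited by depth, with at most 7 and 2 counts in a Con or SFIH tumor.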
